A study of Mus musculus with 8 samples.

Results

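Zinc finger genes carrying the mouse prefix Zfp were followed in sorted splenic dendritic cells that differed in genotype. They were taken as every row of the deposited gene table whose name is Zfp, a number and at most 1 trailing letter, leaving out Zfp36, an mRNA decay factor of another finger type. This gave 392 of 31053 genes, of which 391 are annotated as protein coding. The deposited table places 350 of them in the C2H2 zinc finger family and 2 in the ZBTB family, and gives 40 no transcription factor family. The rule uses the name alone, but the family was taken up with earlier results of these data known.

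The cells were conventional dendritic cells (cDCs), antigen-presenting cells that were sorted from mouse spleen as lineage negative, MHC II positive and CD11c positive. Both groups were first enriched for dendritic cells and cultured for 9 h with 100 nM CpG-B, a DNA ligand of the innate receptor TLR9. There were 4 libraries labelled WT (D142, D150, D154 and D164) and 4 labelled CKO (D146, D149, D163 and D169). The labels name the genotype only as WT or CKO, and the deleted gene, Cre driver, strain and age of the mice are not stated in them. No unstimulated library was analysed. The study's title concerns an immunosuppressive profile of dendritic cells after TLR stimulation.

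C2H2 zinc finger proteins form the largest class of mammalian transcription factors. Each finger is a short loop in which a pair of cysteines and a pair of histidines hold a zinc ion, and fingers in a row read DNA, or in some members RNA. Many members also carry a Krüppel-associated box (KRAB), through which they bind the corepressor TRIM28 and bring the histone methyltransferase SETDB1 to their targets, many of which are retroelements. KRAB zinc finger genes lie in clusters that arose by duplication, and single members are often weakly expressed.

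The total count per library lay between 25304765 and 40950088. All 13 cDC markers were detected. In CPM, which are counts scaled to library size, they summed to 33274 to 46712 in WT and 24434 to 37285 in CKO. The 8 B cell markers summed to 29.5 to 56.9 CPM in WT and 29.9 to 127 CPM in CKO, and stood above the WT range in D146, D163 and D169. The 5 plasmacytoid dendritic cell markers summed to 677 to 1013 CPM in WT and 503 to 732 CPM in CKO. The 6 T cell markers reached at most 69.8 CPM, and the 7 monocyte or macrophage markers at most 60.6 CPM. The 5 erythroid markers lay between 62.6 and 214 CPM in WT and between 6.53 and 87.3 CPM in CKO. The neutrophil markers reached at most 8.30 CPM, with Ly6g at 0 in all 8 libraries. In such bulk samples, fewer cells of a type and less RNA per cell cannot be told apart.

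The coding sequences of members that turned out to differ show the zinc-binding frame and their unequal base composition. Each finger line below is 1 finger with its linker, 84 bases of the GENCODE M21 coding sequence on mm10, with the codons of the 2 cysteines and 2 histidines in capitals. Zfp664 (chr5:124885640-124885723, plus strand) and Zfp445 (chr9:122853378-122853461, minus strand) were higher in CKO. Zfp949 (chr9:88569270-88569353, plus strand), Zfp628 (chr7:4918886-4918969, plus strand), Zfp513 (chr5:31200497-31200580, minus strand) and Zfp787 (chr7:6132966-6133049, minus strand) were lower.
Zfp664: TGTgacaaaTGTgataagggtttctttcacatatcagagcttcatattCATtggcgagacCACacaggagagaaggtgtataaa
Zfp445: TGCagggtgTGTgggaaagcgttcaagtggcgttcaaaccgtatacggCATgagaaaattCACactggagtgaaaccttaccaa
Zfp949: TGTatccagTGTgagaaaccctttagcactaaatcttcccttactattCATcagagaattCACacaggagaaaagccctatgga
Zfp628: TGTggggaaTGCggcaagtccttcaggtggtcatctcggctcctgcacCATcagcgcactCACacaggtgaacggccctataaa
Zfp513: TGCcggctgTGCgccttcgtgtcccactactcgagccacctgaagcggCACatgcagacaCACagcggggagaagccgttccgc
Zfp787: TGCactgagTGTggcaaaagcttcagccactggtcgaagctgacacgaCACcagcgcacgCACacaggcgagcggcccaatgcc

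The frame of the capitals is shared, and the letters between them differ in composition. G and C made up 39.3% of the Zfp664 unit, 47.6% of that of Zfp445 and 40.5% of that of Zfp949. They made up 57.1% of the Zfp628 unit, 65.5% of that of Zfp513 and 61.9% of that of Zfp787. Over the whole coding sequence the share was 48.1% in Zfp664, 44.7% in Zfp445 and 41.5% in Zfp949, against 63.2% in Zfp628, 61.8% in Zfp513 and 65.6% in Zfp787.

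The KRAB A box was found as a short protein motif, and 5 members with it differed between the groups. Below are the 39 bases of each on mm10, with the codons of the residues that the search fixed in capitals. Zfp445 (chr9:122856775-122856813, minus strand), Zfp937 (chr2:150236704-150236742, plus strand), Zfp951 (chr5:104817073-104817111, minus strand) and Zfp26 (chr9:20441405-20441443, minus strand) were higher in CKO, and Zfp949 (chr9:88567171-88567209, plus strand) was lower.
Zfp445: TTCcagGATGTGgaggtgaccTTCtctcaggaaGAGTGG
Zfp937: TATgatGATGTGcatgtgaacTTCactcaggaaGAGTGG
Zfp951: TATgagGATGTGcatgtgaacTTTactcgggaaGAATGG
Zfp26: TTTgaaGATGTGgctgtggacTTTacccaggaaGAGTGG
Zfp949: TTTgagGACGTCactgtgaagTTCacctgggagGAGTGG

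Of the 392 members, 44 had 0 counts in all 8 libraries, 58 were counted but too low for the test, and 290 were tested. The filter asks for enough counts in as many libraries as a group holds, so a gene present in 1 genotype alone can pass. The tested members had a median level of 5.37 CPM, below the 15.6 CPM of all tested genes. Of them, 37 averaged under 1 CPM and 12 over 50 CPM. In all libraries together the members summed to 3554 ± 176 CPM in WT and 3821 ± 141 CPM in CKO (SD, n = 4 each). The sums were 3396, 3546, 3471 and 3801 CPM in WT D142, D150, D154 and D164, and 3816, 3945, 3897 and 3624 CPM in CKO D146, D149, D163 and D169. The groups overlapped, since CKO D169 lay below WT D164.

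Members were tested with edgeR's quasi-likelihood test over all 11702 genes kept by the filter, and called at a Benjamini-Hochberg adjusted p under 0.05. Each difference is the log2 ratio of CKO to WT with its standard error (SE). No label states whether each library is a separate mouse, and the p-values therefore cover sample-to-sample spread that may be technical. Of the 290 tested members, 23 differed (7.93%), beside 8.87% of all tested genes. In CKO 16 were higher (5.52%), beside 4.3% of all tested genes, and 7 were lower (2.41%), beside 4.57%. The share that differed was thus close to that of all genes, with more of the calls upward: 69.6% of the members' calls, against 48.5% of the calls among all genes. At an unadjusted p under 0.05, 64 members were higher and 22 lower. The share of all tested genes at that threshold is not given here, so nothing is read from this split. All 4 CKO libraries stood above all 4 WT libraries in 44 members (15.2%, beside 7.85% of all tested genes), and below them in 14 (4.83%, beside 8.09%).

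These counts rested on few libraries. Without CKO D163 only 3 members differed (1 higher, 2 lower), beside 21 higher and 49 lower of all tested genes. Without WT D150 4 differed (2 higher, 2 lower), beside 21 and 61. The members' calls were then no longer mostly upward, and were too few to weigh against those of all genes. Without WT D154 there were 6 (4 higher, 2 lower), without WT D142 8 (6 higher, 2 lower) and without CKO D169 13 (11 higher, 2 lower). Without WT D164 45 differed (39 higher, 6 lower), and without CKO D146 38 (23 higher, 15 lower). The count over all genes moved as widely, from 70 without CKO D163 to 1468 without WT D164. Scaling by total counts alone gave 34 higher and 4 lower members, beside 1079 and 311 of all tested genes. The median of all genes was then at 0.19 and that of the members at 0.41.

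Among members that act on RNA, proteins or ribosomes, 11 were tested, and 3 were higher (Zfp638, Zfp451 and Zfp106) and 1 lower (Zfp385a), or 36.4% beside the 8.87% of all tested genes. This short list was drawn up with earlier results of these data known, so nothing is read from its share or from those of the lists that follow. Zfp638 (ENSMUSG00000030016, chr6:83867109-83989550) encodes a large nuclear protein that in human cells recruits the HUSH silencing complex to unintegrated retroviral DNA. It stood at 15.04, 15.04, 14.30 and 20.78 CPM in WT D142, D150, D154 and D164, and at 31.92, 37.05, 40.87 and 30.32 CPM in CKO D146, D149, D163 and D169. All CKO libraries were above all WT libraries, and D164 was the highest WT library. The difference was 1.11 ± 0.16 (SE) on the log2 scale, or 2.15-fold, with an edgeR adjusted p of 0.01001.

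Zfp451 (chr1:33761545-33814595), a SUMO ligase in human cells, read 14.9, 21.6, 17.1 and 23.2 CPM in the WT libraries and 31.4, 35.2, 31.4 and 33.7 CPM in the CKO libraries, in the same order. The groups did not overlap, and the difference was 0.78 ± 0.16 on the log2 scale (edgeR adjusted p = 0.0192). Zfp106 (chr2:120506820-120563843), an RNA-binding protein needed by motor neurons and muscle in mice, rose from 27.1 ± 7.87 to 47.8 ± 9.20 CPM (SD, n = 4 each; edgeR adjusted p = 0.0365). Its groups overlapped, with WT D164 at 36.6 and CKO D149 at 36.5 CPM, and its exons overlap Gm26899 on the other strand.

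Zfp385a (chr15:103313895-103340093), an RNA-binding cofactor of p53, fell in CKO. It read 2.53, 3.28, 3.87 and 2.57 CPM in WT, and 1.86, 0.566, 0.585 and 0.778 CPM in CKO D146, D149, D163 and D169. Every CKO library was below every WT library, with D146 far above the other CKO libraries. The fall was -1.67 ± 0.39 on the log2 scale (edgeR adjusted p = 0.0286).

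The other 7 members of this group did not pass. Zfp207, a kinetochore and spindle protein, was the most abundant Zfp-named gene per length, at 41.1 CPM per kb of gene length. It read 269, 275, 278 and 282 CPM in WT and 245, 287, 268 and 285 CPM in CKO, with overlapping groups (-0.03 ± 0.10 on the log2 scale, edgeR adjusted p = 0.896). Its sign turned without WT D164 or CKO D146, with total-count scaling and with the B cell covariate. Zfp622, a ribosome maturation factor, averaged 109 ± 9.93 CPM (WT) and 92.9 ± 6.90 CPM (CKO) (edgeR adjusted p = 0.206). Zfp598, the ubiquitin ligase that marks collided ribosomes, stood at 7.75 ± 1.90 and 4.59 ± 1.75 CPM (edgeR adjusted p = 0.0977). Zfp91, a ubiquitin ligase of the NF-κB-inducing kinase pathway, stood at 26.9 ± 1.33 and 20.3 ± 3.61 CPM (edgeR adjusted p = 0.0967).

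Among the transcription and chromatin regulators, 20 of 23 were tested, and 3 were higher and 2 lower (25%, beside 8.87% of all tested genes). Zfp292 (chr4:34803113-34882960) read 6.21, 3.35, 3.07 and 4.83 CPM in WT and 7.43, 12.9, 9.89 and 8.41 CPM in CKO, without overlap (1.15 ± 0.26 on the log2 scale, edgeR adjusted p = 0.0272). Zfp644, a partner of the G9a and GLP histone methyltransferases in human cells, rose from 17.4 ± 3.48 to 27.5 ± 2.88 CPM (edgeR adjusted p = 0.0309). Zfp407 rose from 4.36 ± 1.10 to 8.62 ± 1.90 CPM (edgeR adjusted p = 0.0287). In both, all CKO libraries were above all WT libraries, and exons of both overlap another annotated gene, Gm28039 for Zfp644 and AC152060.1 for Zfp407.

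Zfp703 (chr8:26977325-26981461), a corepressor known as an oncogene in human luminal breast cancer, was lower in CKO. It read 12.3, 20.3, 19.8 and 17.7 CPM in WT and 8.74, 5.40, 6.91 and 4.15 CPM in CKO. The groups did not overlap, and the fall was -1.47 ± 0.24 on the log2 scale, 2.78-fold, with an edgeR adjusted p of 0.0124. Its exons overlap Gm45371 on the other strand. Zfp609 (chr9:65692391-65827564), a partner of the cohesin loader NIPBL in neural cells of mice, fell from 6.25 ± 0.820 to 3.504 ± 0.859 CPM (edgeR adjusted p = 0.0400). The highest CKO library, 4.65 CPM in D149, lay just below the lowest WT library, 5.10 CPM in D142. Zfp609 kept its call in 9 of 18 alternative fits, and with the B cell covariate its edgeR adjusted p was 0.137.

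The remaining 15 tested regulators did not pass. Zfp148, a GC-box binding factor, had the lowest adjusted p of these, averaging 25.4 ± 2.46 CPM (WT) and 33.1 ± 2.17 CPM (CKO) with no overlap (edgeR adjusted p = 0.0737). Zfp143, a factor of promoters and chromatin loops, stood at 37.1 ± 5.26 and 35.7 ± 2.79 CPM. Zfp281, a regulator of pluripotent stem cells, stood at 37.8 ± 5.35 and 38.6 ± 1.49 CPM. Zfp410, which activates the remodeller gene Chd4, stood at 39.4 ± 1.14 and 41.2 ± 2.31 CPM. Zfp423 and Zfp462 had 0 counts in every library, and Zfp532 was too low for the test.

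Of 7 known repressors of imprinted genes and retroelements, Zfp57, Zfp708 and Zfp42 had 0 counts in all libraries, and 1 of the 4 tested differed. Zfp445 (chr9:122844529-122866006), a KRAB protein that maintains genomic imprints in mice, read 9.49, 7.97, 9.63 and 12.8 CPM in WT and 18.0, 18.2, 19.9 and 16.7 CPM in CKO. All CKO libraries were above all WT libraries (0.87 ± 0.17 on the log2 scale, 1.83-fold, edgeR adjusted p = 0.0177). Zfp809, which silences murine leukaemia proviruses in embryonic stem cells, read 76.4, 67.1, 58.9 and 65.6 CPM in WT and 60.0, 74.2, 70.6 and 68.6 CPM in CKO, with full overlap (edgeR adjusted p = 0.899). Zfp932, a repressor of endogenous retroviruses, stood at 2.46 ± 0.614 and 3.98 ± 0.935 CPM (edgeR adjusted p = 0.105). Zfp568, the repressor of a placental Igf2 transcript, stood at 2.66 ± 1.99 and 4.33 ± 1.46 CPM (edgeR adjusted p = 0.314).

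Zfp366, also called DC-SCRIPT, is a transcription factor of dendritic cells. It was the fourth most abundant member per length, at 22.9 CPM per kb, and read 72.4, 106, 110.1 and 169.5 CPM in WT D142, D150, D154 and D164. In CKO D146, D149, D163 and D169 it read 173.5, 211.9, 182.9 and 145.5 CPM. WT D164 lay inside the CKO range, and the difference of 0.64 ± 0.22 on the log2 scale did not pass (edgeR adjusted p = 0.0853). Without WT D164 it was 0.91 (edgeR adjusted p = 0.0124). With any other single library left out, the difference did not pass (edgeR adjusted p from 0.0901 to 0.1999). It was lowest without WT D142, at 0.47. Over all 8 libraries it passed with DESeq2 (0.63, DESeq2 adjusted p = 0.0477) and with total-count scaling (0.79, edgeR adjusted p = 0.0450). In the other fits of all 8 libraries it did not pass. Zfp706, a small single-finger protein and the third most abundant, stood at 114 ± 9.21 and 137 ± 26.0 CPM (edgeR adjusted p = 0.238).

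Other members, with no role given here, also rose. Zfp664 (chr5:124862691-124902693) read 3.65, 5.36, 4.96 and 6.15 CPM in WT and 10.3, 13.4, 12.3 and 9.82 CPM in CKO, without overlap. Its rise was 1.18 ± 0.20 on the log2 scale, 2.27-fold, with an edgeR adjusted p of 0.0124. Zfp280b (chr10:76032650-76043234) read 3.19, 5.89, 4.70 and 7.76 CPM in WT and 12.8, 14.1, 14.4 and 9.67 CPM in CKO, without overlap (1.24 ± 0.26 on the log2 scale, edgeR adjusted p = 0.0212). In both, the lowest CKO library was D169 and the highest WT library D164.

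The largest fitted rise belonged to a nearly silent gene. Zfp937 (chr2:150218073-150240725), a KRAB member, read 0.124, 0.0762, 0.118 and 0.2302 CPM in WT and 0.628, 0.793, 0.439 and 1.07 CPM in CKO (2.40 ± 0.49 on the log2 scale, edgeR adjusted p = 0.0198). The groups did not overlap, but at these levels Zfp937 passed the filter through the CKO libraries alone. Its p-value and lack of overlap come after that selection, and nothing is read from them. Also, 29.4% of the 50-base words of its transcripts occur in another gene as well. Its counts could thus have been split with or taken from a near copy. Zfp874a rose from 1.15 ± 0.523 to 3.02 ± 0.515 CPM (edgeR adjusted p = 0.0305), with 7.79% of its words shared. Among the tested members, 69 share over 5% of their words with another gene and 29 share over 20%. Zfp35 rose from 24.7 ± 1.96 to 35.9 ± 2.49 CPM (edgeR adjusted p = 0.0258). Zfp951, Zfp654, Zfp146 and Zfp26 also rose, and were named after their values were seen.

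Among the other members that fell, Zfp628 (chr7:4915217-4922002), a testis regulator needed for sperm formation in mice, had the largest change. It read 6.75, 5.38, 4.84 and 4.51 CPM in WT and 1.97, 0.906, 1.23 and 1.67 CPM in CKO. The groups were far apart, and the fall was -1.89 ± 0.28 on the log2 scale, 3.70-fold, with an edgeR adjusted p of 0.01001. Zfp787 (chr7:6131491-6155997) read 16.03, 17.02, 15.86 and 11.6 CPM in WT and 11.2, 4.83, 7.03 and 6.15 CPM in CKO (-1.04 ± 0.25, edgeR adjusted p = 0.0291). The lowest WT library, D164, and the highest CKO library, D146, nearly met.

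Zfp513 (chr5:31198981-31202303), a regulator of retinal genes, was the second most abundant member per length, at 36.8 CPM per kb. It read 126, 124, 121 and 94.3 CPM in WT and 89.2, 79.3, 51.1 and 43.3 CPM in CKO. WT D164 lay close to CKO D146, and the fall was -0.82 ± 0.21 on the log2 scale (edgeR adjusted p = 0.0377). Its exons overlap those of Snx17 on the other strand, which averaged 144 ± 7.65 CPM (WT) and 149.8 ± 3.88 CPM (CKO) (edgeR adjusted p = 0.738). Zfp949 (chr9:88548020-88571061), the KRAB member that fell, read 24.9, 22.5, 26.9 and 22.7 CPM in WT and 17.0, 18.6, 15.4 and 17.2 CPM in CKO, without overlap (-0.51 ± 0.13, edgeR adjusted p = 0.0367).

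**Figure D1:**
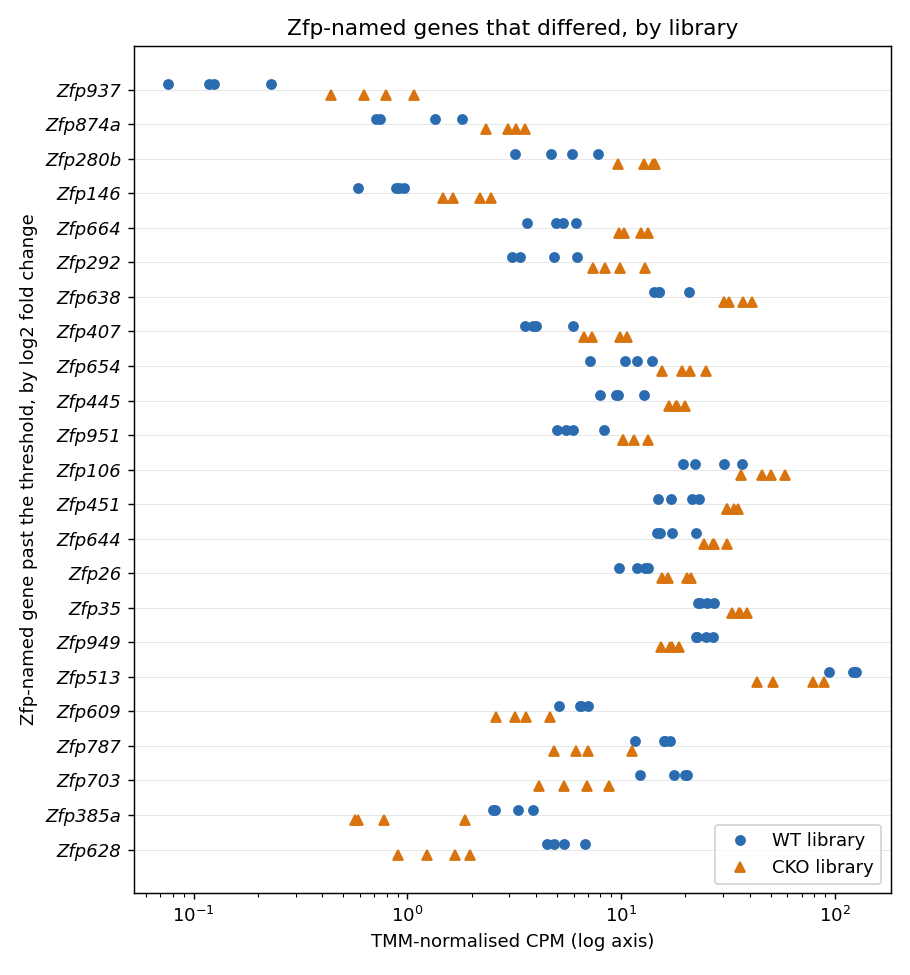
TMM-normalised CPM (log axis) of the 23 Zfp-named genes that differed, 1 circle for each WT library and 1 triangle for each CKO library, ordered by log2 fold change. The 16 genes from Zfp35 upward rose and the 7 from Zfp949 downward fell. Only for Zfp106 do the 2 groups overlap.

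As a group, the tested members leaned upward by less than the smallest single call, which was 0.51 on the log2 scale in size. The median difference over 290 members was 0.24 on the log2 scale, beside 0.03 over all tested genes, and the middle 50% ran from -0.06 to 0.53, against -0.24 to 0.33. In CKO 201 of 290 members were above WT (69.3%), against 53.0% of all genes. With no filter on low counts, 348 members had a median of 0.26, beside 0.04 over all genes, and 236 were above WT. With a minimum mean of 5 CPM, 151 members had a median of 0.10, beside 0.02 over all genes, and 96 were above WT. The lean was thus smaller among the better expressed members.

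The lean differed among libraries. The members' median deviation from the 8-library mean was -0.16, -0.09, -0.12 and 0.06 in WT D142, D150, D154 and D164 on the log2 scale. It was 0.09, 0.07, 0.24 and 0.04 in CKO D146, D149, D163 and D169. The other WT libraries lay below the CKO range, and WT D164 lay within it. B cell markers averaged 2.094, 1.502, 2.301 and 1.199 log2 CPM in WT and 2.9996, 1.230, 3.414 and 3.065 in CKO, in the same order. They were thus higher in CKO D146, D163 and D169 than in any WT library. With that average as a covariate, 15 of 290 members were higher and 3 lower, beside 281 and 168 of all 11702 tested genes. In all, 449 genes were then called, against 1038 without the covariate. The members' median was 0.18, beside -0.01 over all genes. The part of B cell RNA in the differences beyond this fit was not tested.

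Long genes as a whole were higher in CKO, so the members were set against genes of like length. All tested genes were split into 10 classes by the deposited gene length. The median difference climbed from -0.12 in the shortest class to 0.29 in the longest, which begins at 9617 bases. The members' median was above that of its class in all 10 classes, by 0.04 to 0.34 on the log2 scale. The gap was widest in the middle classes: among genes of 4252 to 5031 bases, 38 members had a median of 0.36, beside 0.02. Among the longest genes, 25 members had a median of 0.38, beside 0.29, and 7 of them differed, all higher (28.0%), in the class where the most genes overall differed (13.6%). Over all members the median difference from the class median was 0.18, and 193 of 290 lay above it.

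The library medians after this subtraction were -0.13, -0.09, -0.11 and 0.02 in WT and 0.04, 0.07, 0.19 and 0.02 in CKO. CKO D169 and WT D164 remained together. The longest class itself stood at -0.27, -0.16, -0.19 and 0.10 in WT and at 0.17, 0.17, 0.20 and 0.06 in CKO, so that WT D164 lay above CKO D169 there too. Removing each library's length trend in the fit left a members' median of 0.23, beside 0.05 over all genes. In that fit 17 members were higher and 7 lower, beside 492 and 519 of all tested genes.

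**Figure D2:**
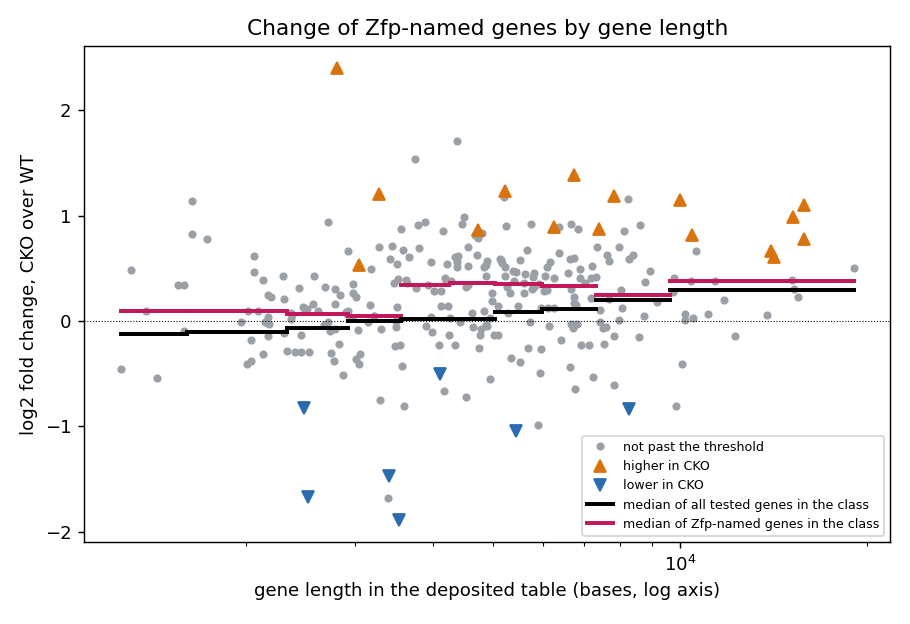
Log2 fold change (CKO over WT) of the 290 tested Zfp-named genes against gene length in bases (log axis), with upward triangles for the 16 higher and downward triangles for the 7 lower genes. Horizontal lines give the medians of the Zfp-named genes and of all tested genes in each of 10 length classes, and the former is above the latter in every class.

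**Figure D3:**
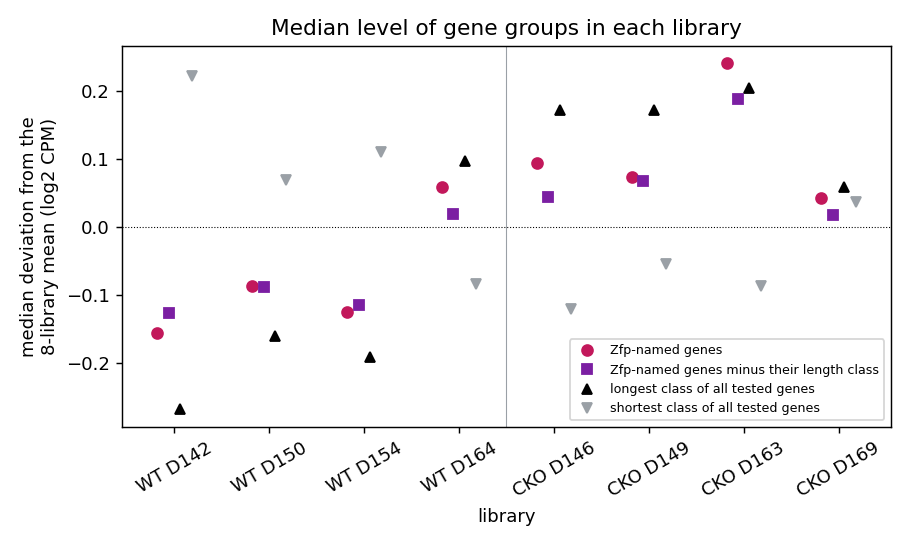
Median deviation from the 8-library mean (log2 CPM) in each library for the Zfp-named genes, for the same after subtracting each gene's length class, and for the longest and shortest of 10 length classes of all tested genes. WT D164 lies within the CKO range for the Zfp-named genes and for the longest class.

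Base composition ordered the members more than length did. Across the 290 members, which share the same 8 libraries, Spearman's rho between difference and transcript GC content was -0.46, against -0.32 across all tested genes. With gene length it was 0.20, against 0.27. The members are AT-rich, with a median transcript GC content of 44.6% beside 49.8% over all tested genes. The 16 that rose had 35.8% to 48.7% GC (median 42.9%), and the 7 that fell had 46.3% to 63.5% (median 61.6%).

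In the fifth of all genes with the lowest GC content, 141 members had a median difference of 0.39, beside 0.21 for all genes there, with 11 higher (7.80%, beside 10.2% of all genes there) and none lower by edgeR's test. In the fifth with the highest GC content, 43 members had a median of -0.30, beside -0.18, with none higher and 4 lower (9.30%, beside 9.91% of all genes there). The shares called in both classes were thus at or below those of all genes of like GC content. Zfp949 was the exception among the fallers, with 46.3% GC.

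When each library's trends with GC content and length were removed together, the balance of calls changed. Then 8 of 290 members were higher, beside 463 of 11702 tested genes (3.96%), and 8 were lower, beside 515 (4.4%). In both directions the members' share was below that of all genes. Of the 23 members called before, 14 were called again in the same direction. The median over the members was 0.18, beside 0.04 over all genes, and in CKO 189 of 290 were above WT (65.2%), against 54.1% of all genes. Zfp638 was then at 0.72 (edgeR adjusted p = 0.0104), Zfp664 at 1.03 (0.0120), Zfp628 at -1.34 (0.0159) and Zfp703 at -1.04 (0.0183). The 9 that no longer passed were Zfp451, Zfp106, Zfp292, Zfp407, Zfp644, Zfp874a, Zfp654, Zfp26 and Zfp513. Among these Zfp513 was at -0.33, Zfp644 at 0.32 and Zfp451 at 0.43, with edgeR adjusted p of 0.234, 0.113 and 0.0684.

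Members that passed only in that fit were Zfp91, at -0.67 (edgeR adjusted p = 0.0292), and Zfp330, a nucleolar protein, at -0.42 (edgeR adjusted p = 0.0385). Both had been below WT before the trends were removed, at -0.41 and -0.26. Zfp330 averaged 36.4 ± 1.20 CPM (WT) and 30.4 ± 1.10 CPM (CKO), with no overlap, and was named after its values were seen.

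**Figure D4:**
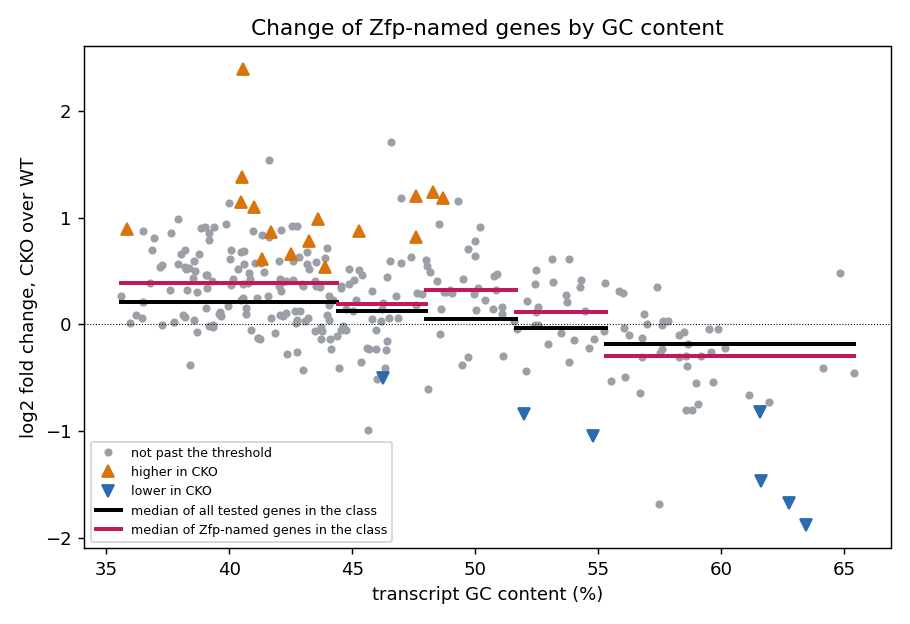
Log2 fold change (CKO over WT) of the tested Zfp-named genes against transcript GC content (%), with upward triangles for higher and downward triangles for lower genes. Horizontal lines give the medians of the Zfp-named genes and of all tested genes in 5 GC classes, running from 0.39 and 0.21 at the AT-rich end to -0.30 and -0.18 at the GC-rich end.

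Members were also described by whether the motif search found a KRAB A box. By this search, 194 members had a KRAB A box and at least 2 fingers, and 26 members had fewer than 2 fingers. Nearly all of the others had at least 2 fingers and no KRAB box by these letters, and a box with other letters was counted as absent. Of 143 tested KRAB members, 4 were higher and 1 lower (3.497%), 108 were above WT (75.5%) and the median was 0.30. Of 134 tested finger members without a KRAB box, 12 were higher and 4 lower (11.9%), 85 were above WT (63.4%) and the median was 0.15. Over all tested genes 8.87% were called and 53.0% were above WT. The KRAB members were the lower expressed, at a median of 4.09 against 9.01 CPM, and the more AT-rich, at 42.0% against 49.5% GC.

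Once GC and length trends were removed, the medians were 0.17 for KRAB members and 0.19 for the others, beside 0.04 for all genes. The shares above WT were then 65.7% and 64.9%. With stricter motif letters, which find a KRAB box in 162 rather than 197 members of the table, the medians were 0.28 and 0.21 before removal and 0.14 and 0.20 after it. The order of the classes also turned between libraries, with median deviations of 0.04 for KRAB members and 0.18 for the others in CKO D146, and of 0.29 and 0.14 in CKO D163. The difference between the 2 classes was not tested.

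**Figure D5:**
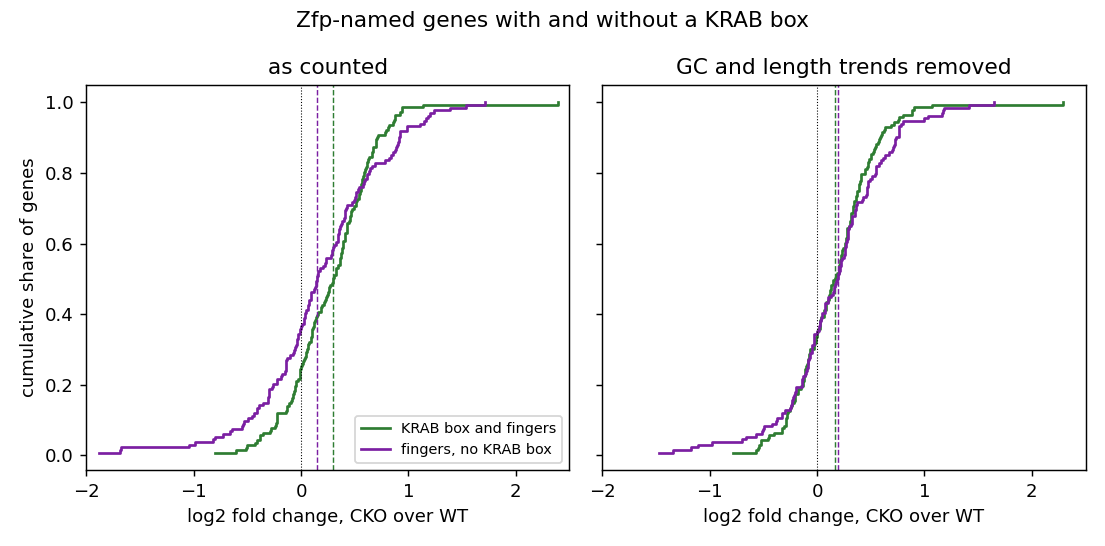
Cumulative share of tested Zfp-named genes by log2 fold change (CKO over WT), for genes with a KRAB box and fingers and genes with fingers alone, with dashed lines at the class medians. Left, as counted, with medians of 0.30 and 0.15. Right, after GC and length trends were removed, with medians of 0.17 and 0.19.

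Many members lie in genomic clusters. With members joined at gaps of at most 500000 bases, 10 clusters held at least 8 members. On chr13:67038596-67827002, 15 of 19 tested members were above WT with a median of 0.47, and on chr17:32771236-33631779 12 of 13 with a median of 0.48. On chr7:29768552-30169750, 12 of 13 were above WT (median 0.45). Medians were near 0 on chr6:47819266-48623227 (0.08, 5 of 8 above WT) and chr7:24081924-25227507 (0.06, 5 of 9). On chr7:127233061-127885996, 4 of 10 were above WT with a median of -0.08, and the median GC content was 55.8%, against 40.1% in the chromosome 13 cluster. Once GC and length trends were removed, the median of that cluster was 0.17 and that of the chromosome 13 cluster 0.26, and all 10 cluster medians were positive, from 0.07 to 0.46. Neighbours in a cluster can share sequence.

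KRAB proteins act through partner proteins. Of 31 tested partner genes, Pphln1 of the HUSH complex and the heterochromatin protein gene Cbx5 were higher, and Mta1 of the NuRD complex was lower (9.68% called, beside 8.87% of all tested genes). Cbx5 rose from 14.4 ± 2.65 to 22.6 ± 2.83 CPM (edgeR adjusted p = 0.0366). Mta1 fell from 14.9 ± 1.76 to 5.39 ± 3.496 CPM (edgeR adjusted p = 0.0286). Trim28 was at 43.7 ± 1.54 CPM (WT) and 37.9 ± 7.67 CPM (CKO) (edgeR adjusted p = 0.396), and Setdb1 at 15.3 ± 3.85 and 20.1 ± 5.87 CPM (edgeR adjusted p = 0.285). The median over the list was 0.22, beside 0.03 over all genes, and the median difference from the length class was 0.06. Once GC and length trends were removed, the list's median was 0.08, beside 0.04 over all genes.

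Other zinc finger families had medians near those of their length classes. The median difference from the length class was -0.01 over 36 Zbtb genes, -0.09 over 14 Zkscan and Zscan genes, -0.08 over 15 Zc3h genes and -0.03 over 12 Klf genes, beside 0.18 over the Zfp-named genes. These families are less AT-rich, with median GC contents of 48.5% to 50.3% against 44.6%. They were also more highly expressed, with median levels of 8.89 to 16.3 CPM against 5.37 CPM. Zfp-named finger genes without a KRAB box, at 49.5% GC, stood at 0.08. Once GC and length trends were removed, the family medians were 0.08, -0.06, -0.10 and 0.03 in the same order. The Zfp-named genes were then at 0.18, and all genes at 0.04. In the Zbtb family 2 were higher and 5 lower (19.4%, beside 8.87% of all tested genes), among them Zbtb22, from 54.1 ± 2.59 to 30.1 ± 8.20 CPM (edgeR adjusted p = 0.0202). In the Zc3h family, whose fingers bind RNA, 1 was higher and 2 lower (20.0%). Zc3h12a (Regnase-1, which cuts mRNAs of inflammation) was lower at 15.05 ± 7.95 CPM in CKO against 41.5 ± 3.19 CPM in WT (edgeR adjusted p = 0.0171). Of the Zkscan and Zscan genes 1 was higher and 0 lower (7.14%), Zkscan1 (0.78 on the log2 scale, edgeR adjusted p = 0.0288). Of the Klf genes 1 was higher and 0 lower (8.33%), Klf10 (0.74, edgeR adjusted p = 0.0282).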

How the data were processed

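The authors deposited whole-number read counts per gene, not normalised, with gene position, length and transcription factor family per the file headers. Per the labels, polyA RNA was amplified with SMART-Seq v4, and libraries were made with a kit from Vazyme. The submitters' processing notes name HISAT2 2.2.1, fastp 0.23.2 and mm10. No source used here gives the counting program, its annotation or strand setting, so reads of overlapping genes may not be told apart.

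Low counts were filtered by group with filterByExpr, scaled by TMM and tested with edgeR 4.0.16 in R 4.3.3 (robust quasi-likelihood), with Benjamini-Hochberg adjustment over 11702 genes. The SE is the log2 fold change over the square root of F. Log2 CPM used a prior count of 2. Library trends were splines with 5 degrees of freedom. DESeq2 1.42.0 and limma 3.58.1 (voom) were alternatives. The fit was tested on counts simulated from its own means and dispersions. It called 68 of 100 genes changed by 1 on the log2 scale and 94 of 100 changed by 2, with 10 false calls. The simulated counts held no GC or length trend, so this test cannot speak to those trends. GC content, exon overlaps and coding sequences came from GENCODE M21, which held 31011 of the 31053 gene IDs. Deposited lengths equalled its exon union in 95.6%. Fingers and KRAB boxes were searched in translated GENCODE coding sequences in place of a RefSeq protein table. The wider KRAB letters, the GC classes and the clusters were chosen after seeing the data.

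The members and lists were chosen with earlier results of these data known. Named were the 8 smallest p-values and the 4 largest changes of at least 2 CPM in each direction, the 4 most abundant per length, role-list members, up to 4 partners and up to 2 genes of each other family.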

Additional observations from a re-analysis of the deposited data

Results flagged for a closer look

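In 106 groups of 4 libraries of named members, 6 had 1 library far from the other 3. Chance flags about 1 in 20 groups, which is close to this share. Zfp638 in WT D164 stood at 20.78 CPM, above 14.30 to 15.04 CPM in the other WT libraries. Zfp513 in the same library stood at 94.25 CPM, below 121.3 to 125.7 CPM. Both values lay toward those of CKO.

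In CKO D146, Zfp385a stood at 1.857 CPM, above 0.5665 to 0.7784 CPM, and Zfp335, a regulator of T cell development, at 16.30 CPM, above 8.167 to 8.526 CPM. Zfp281 in CKO D163 stood at 40.84 CPM, above 37.62 to 38.04 CPM. Zfp598 in WT D150 stood at 10.59 CPM, above 6.795 to 6.808 CPM.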

How the results depend on the processing

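The members' median difference and its excess over the length class were positive in every alternative run. Leaving out each library in turn gave medians of 0.18 to 0.30 and excesses of 0.13 to 0.23. In those 8 fits 3 to 45 members differed, with 1 to 39 higher and 2 to 15 lower. Total-count scaling gave 38 members (34 higher, 4 lower), beside 1390 of all tested genes (1079 higher, 311 lower), and a members' median of 0.41. A minimum mean of 5 CPM gave a median of 0.10 over 151 members, beside 0.02 over all genes, and an excess of 0.11. Removing GC and length trends left 8 members higher, beside 463 of all tested genes. The B cell covariate left 3 lower, beside 168. DESeq2 called 51 of 290 members (34 higher, 17 lower), beside 2012 of all 11702 tested genes (969 higher, 1043 lower). An adjusted p of 0.1 gave 51 (38 higher, 13 lower). An adjusted p of 0.01 gave 0 by edgeR (0 higher, 0 lower), 24 by DESeq2 and 4 by limma-voom. At an unadjusted p under 0.05, edgeR gave 64 higher and 22 lower. Counts over all genes at these other thresholds are not given here, so nothing is read from the members' counts at them. With 25 classes by length and GC content, added after seeing the data, the excess was 0.14. Zfp207, near 0, turned to 0.13 with total counts, 0.016 with the B cell covariate, 0.0046 without WT D164 and 0.020 without CKO D146 (range over the left-out libraries -0.055 to 0.020). Zfp638 and Zfp703 were called in all 19 alternative fits, Zfp628 in the 18 that tested it and Zfp664 in 18 of 19, without CKO D163 being the exception. The other 19 called members kept their calls in 9 to 16 fits. The cause of these shifts was not tested. Members near 1 CPM are limited by depth. No paired analysis was possible because the library numbers are not shared between WT and CKO.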
